A study of Arabidopsis thaliana with 36 samples.

Results

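In leaves taken before prolonged darkness, the 2 libraries of the hml1-2 mutant differed strongly in a set of genes that included known defence genes, and so did the 2 libraries of wild-type plants. The 200 genes described here are those that parted these libraries most, of 28774 genes counted. For each gene the difference between replicate 1 and replicate 2 was taken at 0 h in hml1-2 and in WT, as log2(CPM + 1), where CPM is counts scaled to the library's total over genes. The genes were chosen by the smaller of these 2 differences, so a gene ranked high only if it was higher in replicate 1 of both genotypes. Differences on this scale understate the change of genes at low counts.

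The 36 libraries came from rosette leaves 9 to 12 of Arabidopsis thaliana, aged 5 weeks and kept on soil under short days (8 h light, 16 h dark). The genotypes were ivd1-2, hml1-2 and Columbia wild type (WT, stock CS60000), and each of the 6 conditions had 2 libraries per genotype. Sampling took place at the start (0 h), in extended darkness after 6, 24, 48 and 72 h, and after 72 h in which the short-day cycle went on, called 72 h of light below. The labels give 1 line per mutant and do not say whether the libraries of a group came from separate plants, and p-values therefore reflect library-to-library spread, which may be technical.

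Salicylate and N-hydroxypipecolate are small signalling molecules by which Arabidopsis leaves raise resistance to pathogens that feed on living tissue. Salicylate is made from isochorismate, which EDS5 exports from the chloroplast and PBS3 joins to glutamate, while ALD1 and FMO1 make N-hydroxypipecolate from lysine. Both signals act through NPR1 and the TGA factors, transcription factors such as SARD1 and the WRKY family strengthen the response, and the secreted proteins PR1, BGL2 (also known as PR2) and PR5 are its usual readouts.

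The selection itself is given as a description, since these values chose the genes. The score ran from 7.07 for LURP1 (AT2G14560), a gene of basal defence against oomycetes, to 2.57 for AAC3 (AT4G28390), a mitochondrial ADP/ATP carrier. Just inside the limit were AT1G66880, AT3G48640 and AAC3, at 2.59, 2.58 and 2.57, and just outside it AT1G34420, GSTF3 and AT1G26420, at 2.57, 2.57 and 2.56. The 10 highest were LURP1, BGL2, PCR1, AIG1, PR1, ARCK1, TAT3, RLP23, AT1G13470 and NUDT6. A score of at least 1 was reached by 1079 genes, whereas 65 genes were lower by at least 1 in replicate 1 of both pairs. PR1 (AT2G14610) showed the split plainly, with 173 and 0.115 CPM in hml1-2 and 95.5 and 0.147 CPM in WT at 0 h. All 200 genes were at least 2-fold higher in replicate 1 of both pairs by construction, beside 6.74% of all genes in the hml1-2 pair and 4.08% in the WT pair, and 0 were higher in replicate 2, beside 0.483% and 0.386%. In ivd1-2 at 0 h, which the selection did not use, PR1 had 62.1 and 36.2 CPM, so both libraries of this mutant were on the high side.

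Members made up 0.695% of all genes counted, the share to set beside each count of a list or family. The set held all 4 genes of a list for the pipecolate pathway, namely ALD1 (AT2G13810), FMO1 (AT1G19250), UGT76B1 (AT3G11340) and AT5G52810. Of 4 genes for salicylate synthesis it held PBS3 (AT5G13320) and EDS5 (AT4G39030), and EDS16 (AT1G74710), which encodes isochorismate synthase, ranked just outside at 232. It held 3 of 5 PR genes, 4 of 11 secretory chaperones, and 2 of 8 NPR and CBP60 regulators, SARD1 (AT1G73805) and NIMIN-2 (AT3G25882). None of 8 genes of the EDS1 module was a member, although PAD4 ranked 226 and 7 of the 8 scored at least 1. None of 9 jasmonate and ethylene defence genes was a member and none of them scored at least 1. No member came from 7 intracellular receptors of the NLR class, 5 antiviral silencing genes or 6 abscisate and cold genes. In lists this short, 0 members is near the share of all genes. A score of at least 1 was reached by 1079 of all 28774 genes, so 0 in a short list is near that share too. The cysteine-rich receptor-like kinases (CRK), plasma membrane kinases of which many respond to salicylate, gave 11 of their 40 genes. Smaller shares came from the WRKY factors (3 of 67), the receptor-like proteins (4 of 52), the glutathione transferases (3 of 48) and the cytochromes P450 (4 of 224). The U-box ligases gave 1 of 22, the NAC factors 2 of 81 and the UDP-glycosyltransferases 1 of 58. Together the lists and families named 49 of the 200 genes, and the remaining 151 lay in none of them.

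Some members were neighbours, and how often this holds for other sets of genes was not measured. On the chromosomes, 29 members lay directly beside another member, in 13 runs, of which the longest were the trios CRK36, CRK37 and CRK38, CRK5, CRK6 and CRK7, and CRK13, CRK14 and CRK15, all on chromosome 4. Other runs paired GSTF6 with GSTF7, CNGC3 with CNGC11, MSRB8 with MSRB9, and YLS2 with AT3G51440. How alike the copies are in sequence was not measured here, and counts are uncertain for any that share reads, which could be split or dropped in counting.

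W-boxes, the sites with core TTGAC to which WRKY factors bind, were counted in the 250 bases before each gene's annotated start, on both strands. They occurred in 66% of the 200 windows, against 45% of 28008 windows of all genes. At least 2 cores lay in 29.5% of the members' windows, against 14% of all windows. The core of TGA factor sites, TGACG, was in 30.0% against 18.5%. TTGACT, a longer form of the W-box, was in 38.0% against 19.2%, and TTGACC in 14.5% against 12.1%. The G-box CACGTG was in 5.5% against 6.45%, and the GCC-box GCCGCC in 1.0% against 1.91%. TGACG can overlap a W-box core, and these shares are descriptions of letters, not of binding. The windows below belong to the 4 members of highest score that had at least 3 W-box cores in a window clear of any other gene, and they were chosen to show how the cores are spaced. Capitals mark TTGAC or its reverse complement GTCAA, in the gene's own 5′ to 3′ direction on the TAIR10.1 build from RefSeq.
AT5G25260, chr5:8752434-8752683, + strand: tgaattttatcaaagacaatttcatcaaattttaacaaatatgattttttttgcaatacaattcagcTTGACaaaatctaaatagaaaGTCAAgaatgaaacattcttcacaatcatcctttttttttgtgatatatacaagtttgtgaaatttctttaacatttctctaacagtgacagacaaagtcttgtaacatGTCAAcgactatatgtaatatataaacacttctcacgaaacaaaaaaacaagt
GSTF7 (AT1G02920), chr1:659981-660230, - strand: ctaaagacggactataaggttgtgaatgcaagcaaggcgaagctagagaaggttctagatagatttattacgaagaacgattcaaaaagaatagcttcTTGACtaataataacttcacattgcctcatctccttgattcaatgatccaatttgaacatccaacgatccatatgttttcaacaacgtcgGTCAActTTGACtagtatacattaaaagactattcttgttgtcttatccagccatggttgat
SARD1 (AT1G73805), chr1:27749249-27749498, - strand: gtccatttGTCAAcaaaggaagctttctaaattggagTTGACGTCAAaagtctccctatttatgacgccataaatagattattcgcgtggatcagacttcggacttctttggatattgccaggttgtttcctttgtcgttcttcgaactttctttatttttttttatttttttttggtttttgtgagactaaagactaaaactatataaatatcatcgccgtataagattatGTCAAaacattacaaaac
AT5G42830, chr5:17176043-17176292, + strand: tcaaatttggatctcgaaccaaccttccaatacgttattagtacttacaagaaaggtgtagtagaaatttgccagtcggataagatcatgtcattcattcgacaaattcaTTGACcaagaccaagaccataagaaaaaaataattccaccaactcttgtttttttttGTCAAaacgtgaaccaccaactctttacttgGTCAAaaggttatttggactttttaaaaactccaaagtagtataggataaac
In the SARD1 window a pair of cores in opposite directions lies end to end.

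Facts of the whole series that touch these genes were few. Depth ran from 13638597 to 49398596 counts per library, and 2.37 to 3.53% of the reads were assigned to no gene. IVD (AT3G45300), which encodes isovaleryl-CoA dehydrogenase of leucine breakdown, was lower in both ivd1-2 libraries than in both WT libraries in 6 of 6 conditions, with 2.43 to 403.0 CPM in ivd1-2 and 14.7 to 2059 CPM in WT. HML1 (AT2G26800), which encodes hydroxymethylglutaryl-CoA lyase, was lower in hml1-2 in 6 of 6 conditions, with 50.5 to 67.3 CPM against 85.2 to 127.7 CPM in WT. At 0 h replicate 1 was the deeper library in all 3 genotypes. In ivd1-2 these held 35657292 and 14028634 counts, and there few of the 200 genes parted. The 2 libraries of a group carried the same multiplex barcode in 6 groups, those at 0 h and 72 h of light. The part of these differences in the split was not tested. The flower marker list summed to 24.2 and 10.8 CPM in hml1-2 and 22.1 and 7.99 CPM in WT at 0 h, nearly all of it from SOC1 (AGL20 in the reference), while AP1 had 0 counts in all of these libraries. The root markers summed to at most 0.367 CPM there, with PHT1;1 and IRT1 at 0. In hml1-2 at 72 h of light the flower list summed to 21.2 and 11.3 CPM, and in ivd1-2 at 72 h of darkness the root list summed to 15.3 and 53.8 CPM and the phloem list to 122 and 222 CPM. Their part in the split was not tested.

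Across the series the level of the set often differed as much between the 2 libraries of a group as between groups. Its median level was 3.97 and 4.04 log2(CPM + 1) in ivd1-2 at 0 h. At 6 h of darkness it was 3.79 and 4.87 in ivd1-2, 1.85 and 2.05 in hml1-2, and 1.60 and 1.35 in WT. At 24 h these medians were 0.90 and 2.53 in ivd1-2, 2.43 and 1.67 in hml1-2, and 2.04 and 0.75 in WT. At 48 h they stood at 1.28 and 0.41 in ivd1-2, 2.81 and 1.31 in hml1-2, and 2.96 and 0.52 in WT. After 72 h of darkness the libraries of ivd1-2 were at 4.87 and 0.86, those of hml1-2 at 2.21 and 1.18, and those of WT at 2.16 and 0.78. After 72 h of light the medians were 4.13 and 4.87 in ivd1-2, 4.26 and 1.19 in hml1-2, and 1.73 and 1.22 in WT. High levels therefore occurred in both ivd1-2 libraries at the start, after 6 h in darkness and after 72 h in light, and in 1 library of the pair in ivd1-2 at 72 h of darkness and hml1-2 at 72 h of light. The set held 0.102 to 2.31% of all counts in a library.

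**Figure D1:**
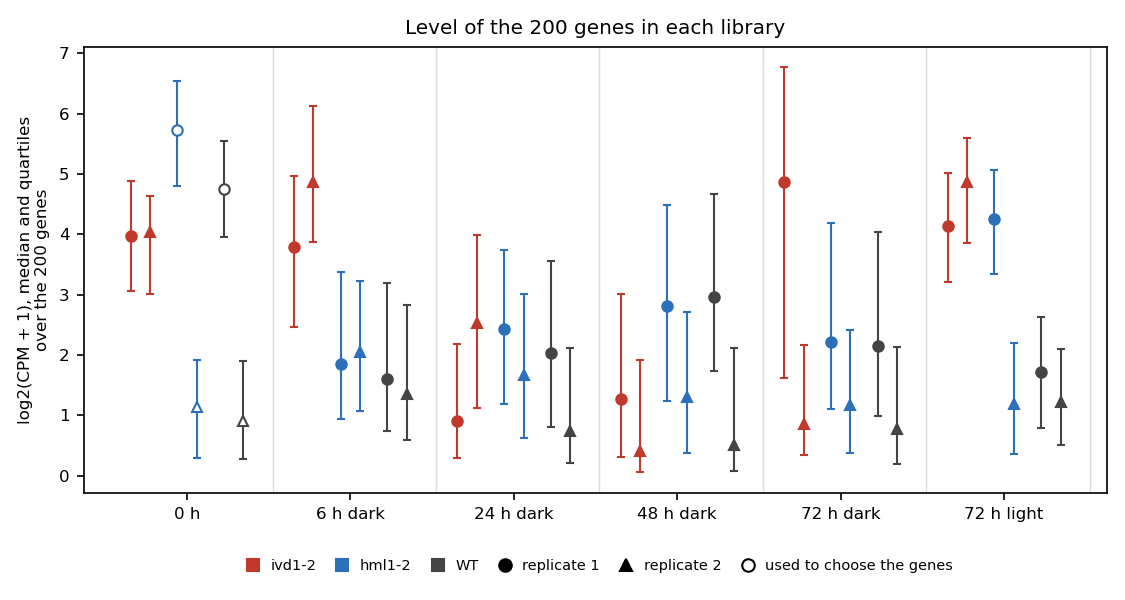
Level of the 200 genes in each of the 36 libraries, as the median (point) and quartiles (bars) of log2(CPM + 1), with open points for the 4 libraries that chose the genes. Both ivd1-2 libraries are high at 0 h, 6 h of darkness and 72 h of light, while ivd1-2 at 72 h of darkness (4.87 and 0.86) and hml1-2 at 72 h of light (4.26 and 1.19) each have 1 high and 1 low library.

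The split returned in pairs that had no part in the selection. In hml1-2 after 72 h of light, 200 of the 200 genes were at least 2-fold higher in replicate 1 and 0 in replicate 2, beside 2.67% and 0.566% of all genes. In ivd1-2 after 72 h of darkness, 134 were at least 2-fold higher in replicate 1 and 0 in replicate 2, beside 8.86% and 4.99% of all genes. In WT replicate 1 was the higher one for 142 genes at 48 h (3.09% of all genes), 97 at 72 h of darkness (1.63%) and 77 at 24 h (0.848%), and replicate 2 for 0 in each of these pairs (0.636%, 1.2% and 0.146% of all genes). In hml1-2 replicate 1 was the higher one for 114 genes at 48 h (3.59%), against 1 the other way (1.66%), for 96 at 72 h of darkness (1.54%), against 0 (1.28%), and for 39 at 24 h (0.796%), against 0 (0.101%). The ivd1-2 pair at 48 h had 52 genes higher in replicate 1 (2.32%) and 0 in replicate 2 (1.27%). In other ivd1-2 pairs replicate 2 was the higher one. At 6 h it was so for 109 genes (1.3%), against 2 the other way (1.71%), at 24 h for 102 (0.858%), against 2 (0.535%), and after 72 h in light for 60 (0.82%), against 3 (0.539%). Pairs with few genes apart were ivd1-2 at 0 h, with 9 higher in replicate 1 and 1 in replicate 2 (0.455% and 0.483% of all genes), WT at 6 h, with 13 and 1 (0.924% and 0.0452%), hml1-2 at 6 h, with 11 and 12 (1.02% and 0.334%), and WT at 72 h of light, with 21 and 0 (0.261% and 0.174%). The counts depended on the scale and on the limit. With log2(CPM + 5), replicate 1 was the higher one by at least 1 for 87 genes at 48 h, 53 at 72 h of darkness and 31 at 24 h in WT (1.13%, 0.573% and 0.257% of all genes), for 9 at 24 h in hml1-2 (0.215%) and for 114 at 72 h of darkness in ivd1-2 (5.99%). With a difference of at least 2 in log2(CPM + 1), the same pairs gave 84, 38 and 18 genes in WT (0.615%, 0.275% and 0.0869%), 2 in hml1-2 (0.0799%) and 110 in ivd1-2 (3.99%). The hml1-2 pair at 72 h of light kept 167 and 162 genes under these alternatives (1.06% and 0.702%). Replicates have no order within a group, and the labels do not tie equal numbers in different groups to a shared plant or day.

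**Figure D2:**
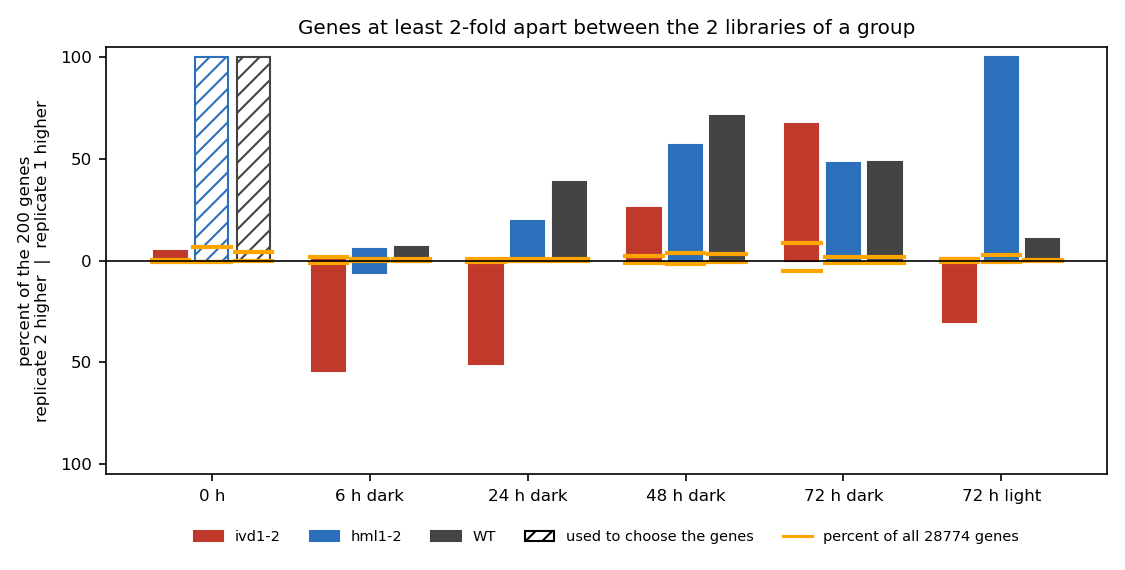
Percent of the 200 genes that were at least 2-fold higher in replicate 1 (upward bars) or in replicate 2 (downward bars) of each group, with the percent of all 28774 genes as orange lines, and hatching for the 2 pairs that chose the genes. The hml1-2 pair at 72 h of light parts in all 200 genes, and ivd1-2 at 0 h in few.

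Of the salicylate synthesis genes, PBS3 had 696 and 0.861 CPM in ivd1-2 after 72 h of darkness, 3.64 and 0.725 in hml1-2, and 1.97 and 0.491 in WT. In 72 h of light it had 24.6 and 72.1 CPM in ivd1-2, 49.2 and 3.15 in hml1-2, and 4.05 and 3.32 in WT. The library at 696 CPM stood above the 136 CPM of the highest 0 h library. EDS5 had 158 and 0.965 CPM in ivd1-2 at 72 h of darkness and 0.697 and 0.604 CPM in WT. At 6 h of darkness EDS5 had 16.5 and 20.5 CPM in ivd1-2, 1.73 and 0.848 in hml1-2, and 1.36 and 0.751 in WT, so both ivd1-2 libraries lay above all 4 others. EDS16, outside the set by rank, had 956 and 2.51 CPM in ivd1-2 at 72 h of darkness and 1.28 and 0.604 CPM in WT.

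ALD1, FMO1 and UGT76B1, the last of which attaches glucose to salicylate and N-hydroxypipecolate, were at most 0.251 CPM in every library at 24 and 48 h of darkness. FMO1 had 14.8 and 19.8 CPM in ivd1-2 after 72 h of light, 15.4 and 0 in hml1-2, and 0.0513 and 0.0305 in WT. At 72 h of darkness it had 137 and 0.276 CPM in ivd1-2, 0.240 and 0.0381 in hml1-2, and 0.116 and 0 in WT. The high ivd1-2 library held nearly all FMO1 counts of that time. UGT76B1 had 107 and 0 CPM in ivd1-2 and 0.116 and 0 CPM in WT at 72 h of darkness. ALD1 differed from them, with 1.85 and 0.138 CPM in that ivd1-2 pair, although after 72 h of light it had 20.3 and 42.6 CPM in ivd1-2, 21.7 and 0.0968 in hml1-2, and 0.180 and 0.0610 in WT. AT5G52810, annotated as an NAD(P)-binding Rossmann-fold protein, had 13.2 and 0.310 CPM in ivd1-2 and 1.16 and 0.377 CPM in WT at 72 h of darkness.

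Among the regulators, SARD1, a calmodulin-binding-like factor that activates salicylate synthesis, had 183 and 1.03 CPM in ivd1-2 at 72 h of darkness, 19.6 and 1.53 in hml1-2, and 5.34 and 1.13 in WT. At 48 h its highest library was a WT one, with 1.38 and 0.818 CPM in ivd1-2, 5.26 and 1.65 in hml1-2, and 28.2 and 0.429 in WT. WRKY46 had 200 and 0.276 CPM in ivd1-2 at 72 h of darkness and 0.968 and 0.227 CPM in WT. WRKY70, which promotes salicylate responses over jasmonate ones, was well above 0 in every library. Its lowest values at 72 h of darkness were 23.3 CPM in ivd1-2, 15.9 in hml1-2 and 24.3 in WT, and its highest were 342, 48.0 and 34.6 CPM in the same order of genotypes. WRKY54, its close relative, had 17.6 and 0.241 CPM in ivd1-2 at that time and 0.387 and 0.264 CPM in WT. NIMIN-2, which binds NPR1, had 6.90 and 0.581 CPM in hml1-2 at 72 h of light and 0.462 and 0.335 CPM in WT.

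The set also held receptors of the cell surface. Of 12 pattern receptors and partners 2 were members, RLP23 and SOBIR1, and 6 of the 12 scored at least 1. In that list FLS2, BAK1 and BIK1 ranked 1939, 1916 and 1898, and PEPR1 and PEPR2 scored -0.22 and -0.47. Of 5 wall-associated kinases 2 were members, WAK1 and WAK3, and 3 of the 5 scored at least 1. RLP23, the receptor for a peptide of microbial NLP proteins, had 36.5 and 1.404 CPM in hml1-2 after 72 h of light and 4.36 and 1.37 CPM in WT. SOBIR1, the kinase partner that RLP23 needs, had 170 and 40.5 CPM in hml1-2 and 45.3 and 39.2 CPM in WT. WAK1, a kinase bound to the cell wall, had 172 and 34.8 CPM in hml1-2 and 40.5 and 21.5 CPM in WT. WAK3 had 16.6 and 0.532 CPM in hml1-2 and 1.46 and 0.976 CPM in WT. In each of these genes the low hml1-2 library lay close to the WT values or below them. Of the kinases in tandem, CRK7 had 12.7 and 0.0968 CPM in hml1-2 and 0.513 and 0.183 CPM in WT, and CRK13, from another run, had 14.6 and 0.436 CPM in hml1-2 and 1.67 and 0.823 CPM in WT.

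Outside the selection, the output genes had their highest levels in ivd1-2, at 6 h of darkness for PR1, at 0 h for BGL2 (a beta-1,3-glucanase), and at 72 h of light for PR5. After 72 h of light PR1 had 25.8 and 85.9 CPM in ivd1-2, 28.3 and 0.0484 in hml1-2, and 2.36 and 0.0305 in WT. BGL2 had 149 and 136 CPM in ivd1-2, 109 and 0.920 in hml1-2, and 6.16 and 1.52 in WT. At 6 h of darkness PR1 had 9.62 and 163 CPM in ivd1-2, 0.0310 and 5.63 in hml1-2, and 0.0317 and 0.610 in WT. From 24 h of darkness on, PR1 was at most 2.56 CPM in every library of the 3 genotypes. BGL2 at 48 h had 3.70 and 0.245 CPM in ivd1-2, 82.4 and 1.21 CPM in hml1-2, and 58.4 and 0.161 CPM in WT. PR5, a thaumatin-like protein, had 135 and 120 CPM in ivd1-2 after 72 h of light, 77.1 and 3.05 in hml1-2, and 6.16 and 2.87 in WT.

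Genes of other roles were in the set as well. Of 8 camalexin and indolic defence genes 2 were members, PAD3 and GSTF6, and of 7 for cell death and susceptibility 1, ACD6. Of 7 senescence genes only SAG13 was a member. In that list 4 genes scored at least 1, and SEN1 scored -1.02. PAD3, which makes the antimicrobial compound camalexin, had 45.8 and 21.1 CPM in ivd1-2 after 72 h of light, 21.9 and 0.0968 in hml1-2, and 0.539 and 0.183 in WT. BIP3, a stress-induced chaperone of the endoplasmic reticulum, had 12.7 and 19.2 CPM in ivd1-2, 8.62 and 0 in hml1-2, and 0.180 and 0.122 in WT. CRT3, a calreticulin that helps fold surface receptors, had 226 and 316 CPM in ivd1-2, 182 and 50.4 in hml1-2, and 66.3 and 53.5 in WT. ACD6, a membrane ankyrin protein whose overactivity raises salicylate, was high in light in all genotypes, at 379 and 444 CPM in ivd1-2, 355 and 118 in hml1-2, and 146 and 64.1 in WT. At 72 h of darkness ACD6 had 4.17 and 4.62 CPM in ivd1-2, 4.65 and 4.19 in hml1-2, and 4.30 and 4.79 in WT, so no library stood apart. SAG13, a gene of senescence and cell death, had 27.7 and 12.4 CPM in hml1-2 at 48 h and 3.48 and 0.0537 CPM in WT.

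**Figure D3:**
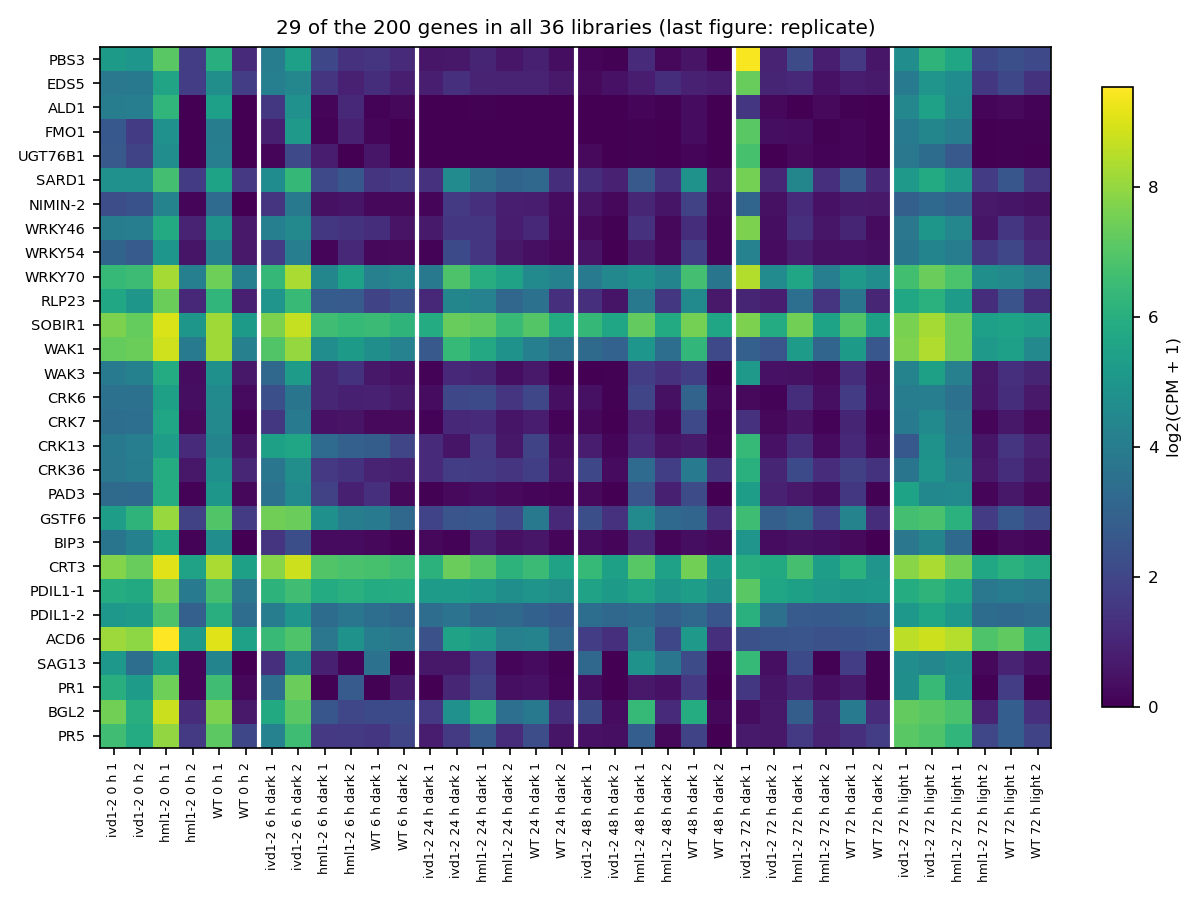
Level of 29 of the 200 genes, as log2(CPM + 1), in all 36 libraries, ordered by condition and, within it, ivd1-2, hml1-2 and WT with replicates 1 and 2. The ivd1-2 column for 72 h of darkness, replicate 1, is bright for PBS3 (696 CPM) and FMO1 (137 CPM) and dark for BGL2 and PR5.

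The ivd1-2 pair at 72 h of darkness and the hml1-2 pair at 72 h of light can be set side by side. Of the 200 genes, 134 were at least 2-fold higher in replicate 1 of both the ivd1-2 pair at 72 h of darkness and the hml1-2 pair at 72 h of light, and 66 were so in the hml1-2 pair alone. Over all genes the counts were 448 in both, 2101 in the ivd1-2 pair alone and 321 in the hml1-2 pair alone. The 66 were told apart after their values were seen, so what follows is a description. They held the 3 PR genes, 4 of the 4 receptor-like proteins, ACD6, WAK1, CRT3 and 5 of the 11 CRK genes. Among the 134 were the 4 pipecolate genes, PBS3 and EDS5, SARD1 and NIMIN-2, the 3 WRKY genes, the 3 glutathione transferases, PAD3 and 6 of the 11 CRK genes. BGL2 had 0.251 and 0.517 CPM in the ivd1-2 pair at 72 h of darkness, and PR5 had 0.627 and 0.517 CPM. PR1 was at the edge of the limit, with 1.88 and 0.448 CPM and a difference of 0.99. PBS3 had the largest difference in that pair, 8.55 on the log2(CPM + 1) scale. ACD6 differed by -0.12 in the ivd1-2 pair and by 1.57 in the hml1-2 pair.

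**Figure D4:**
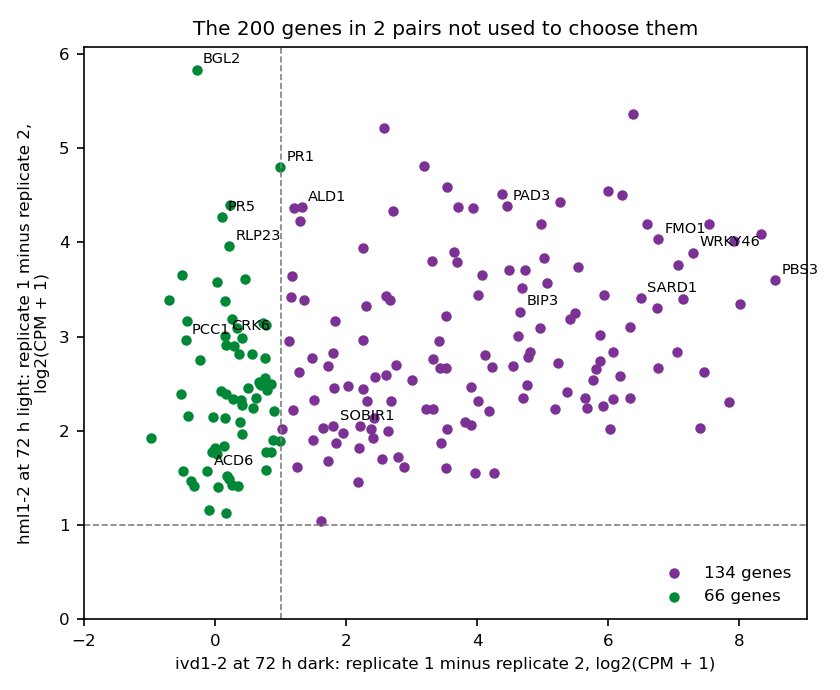
Difference between replicate 1 and replicate 2, as log2(CPM + 1), of each of the 200 genes in ivd1-2 at 72 h of darkness (horizontal) and in hml1-2 at 72 h of light (vertical), with dashed lines at 1. Purple points are the 134 genes past 1 in both pairs and green points the 66 past it in the hml1-2 pair alone, with BGL2, PR5 and ACD6 near 0 on the horizontal axis.

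Among the 32 libraries outside the selection, the highest level of a gene fell in ivd1-2 replicate 1 at 72 h of darkness for 75 genes (37.5%, beside 14.5% of 23879 genes with a count in these libraries). It fell in ivd1-2 replicate 2 at 6 h for 50 genes (25%, beside 3.48%) and in ivd1-2 replicate 2 at 72 h of light for 38 (19%, beside 2.99%). Against the mean of the 2 WT libraries of its condition, the ivd1-2 libraries had 172 and 195 genes at least 2-fold above at 6 h, beside 2.61% and 3.93% of all genes. At 72 h of light they had 196 and all but 2, beside 2.19% and 2.89%. In hml1-2 at 72 h of light the counts were 200 and 0 (1.98% and 0.0904% of all genes), and in ivd1-2 at 72 h of darkness 123 and 3 (9.2% and 1.34%). At 48 h the ivd1-2 libraries had 32 and 92 genes at least 2-fold below the WT mean, beside 2.59% and 2.72% of all genes. They had 12 and 1 above it, beside 1.55% and 0.692%. That mean joined 2 WT libraries that lay apart, at set medians of 2.96 and 0.52 log2(CPM + 1). For 24 of the 200 genes both ivd1-2 libraries lay below both WT libraries, beside 19.6% of all genes. For 3 they lay above both, beside 10% of all genes.

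The mutants were tested against WT by edgeR's quasi-likelihood test on 19387 genes in the 32 libraries, with Benjamini-Hochberg adjustment over all of them. The threshold was an adjusted p of 0.05, and "rose" or "fell" below is used of genes that passed. All 200 genes entered the test. Averaged over 6, 24, 48 and 72 h of darkness and 72 h of light, 71 of the 200 genes rose in ivd1-2 and 0 fell, beside 11.6% of all tested genes that rose and 11.4% that fell. Their median log2 fold change was 1.51, against -0.01 over all genes. The rises with the largest fold changes were in AT3G46080, a C2H2 zinc finger protein (log2 4.09, SE 1.14, adjusted p = 0.0150), AT3G22600 (3.95, SE 1.15, adjusted p = 0.0193), GSTU4 (3.35, SE 1.02, adjusted p = 0.0244), BIP3 (3.25, SE 0.88, adjusted p = 0.0133) and AIG1 (3.14, SE 1.02, adjusted p = 0.0325). PDIL1-2 and PDIL1-1, isomerases that form disulfide bonds in the endoplasmic reticulum, rose by log2 1.41 (SE 0.25, adjusted p = 0.000778) and 0.95 (SE 0.19, adjusted p = 0.00180). EDS5 rose by log2 2.65 (SE 0.62, adjusted p = 0.00568). Of the genes whose windows are printed above, AT5G25260, AT5G42830 and GSTF7 rose, by log2 2.66, 2.29 and 1.82, and SARD1, at 2.17, did not pass (adjusted p = 0.0525). Of the whole lists, 2 of 4 salicylate synthesis genes rose (EDS16 and EDS5), 5 of 8 genes of the EDS1 module, 4 of 8 NPR and CBP60 regulators, 1 of 5 PR genes (PR4, not a member) and 10 of 11 secretory chaperones. Of the pipecolate list 0 of 4 passed, at a median log2 fold change of 3.86 (2.08 without ivd1-2 replicate 1 at 72 h of darkness).

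The count of 71 depended on single libraries, and leaving 1 out could lower it or raise it. The fits named here are ones that lowered it. Without ivd1-2 replicate 1 at 72 h of darkness it was 28, or 14%, near the 10.4% of all genes that rose in the same fit. Leaving out replicate 2 of ivd1-2 gave 42 for the library of 6 h, 43 for that of 24 h and 45 for that of the light, and without ivd1-2 replicate 1 at 48 h it was 34. Leaving out replicate 2 of WT gave 41 for the library of 24 h, 39 for that of 48 h, 37 for the longest darkness and 43 for the light. In these 8 fits 9.06 to 9.54% of all genes rose. No gene of the set fell in any of these fits. Without ivd1-2 replicate 1 at 72 h of darkness, an alternative for the lists chosen after seeing the data, 8 of 11 secretory chaperones rose, 1 of 8 genes of the EDS1 module, 2 of 8 NPR and CBP60 regulators and 0 of 5 PR genes, while 2 of 4 salicylate synthesis genes rose and 1 fell.

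In hml1-2 against WT, averaged over the same conditions, 0 of the 200 genes rose and 0 fell, beside 0.00516% and 0.0103% of all genes. The median log2 fold change was 0.69, against 0.01 over all genes. It was above 0 for 196 of the 200 genes, which were chosen by a shared split and are not independent of each other. At an unadjusted p under 0.05, 7 were higher, beside 0.789% of all genes. DESeq2 also called 0, beside 0.0567% that it called higher over all genes. Without hml1-2 replicate 1 at 72 h of light the median of the 200 genes was 0.13, and without WT replicate 1 at 48 h it was 1.28.

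At 6 h of darkness 0 of the 200 genes passed between ivd1-2 and WT, beside 0.00516% of all genes that rose and 0.0206% that fell. The values nevertheless lay apart. Both ivd1-2 libraries were above both WT libraries for all but 3 of the 200 genes, beside 24.8% of all genes counted. The median log2 fold change was 3.25 and 132 genes were higher at an unadjusted p under 0.05, beside 5.58% of all genes. DESeq2 called 27 higher, beside 0.81%, and a fit of only these groups called 39, beside 0.383%. RLP23 had 30.2 and 84.7 CPM in ivd1-2 and 2.88 and 3.99 CPM in WT. LURP1 had 70.8 and 515 CPM in ivd1-2 and 1.46 and 1.08 CPM in WT. At 72 h of light 0 of the 200 genes passed, beside 0.0413% of all genes that rose and 0.0103% that fell, while both ivd1-2 libraries were above both WT libraries for all but 2 of them, beside 22.6% of all genes. The median log2 fold change was 3.45 and 155 genes were higher at an unadjusted p under 0.05, beside 5.31% of all genes. DESeq2 called 32 higher, beside 0.614%, and the fit of only these groups 151, beside 2.5%. In hml1-2, both libraries lay above both WT libraries for 78 of the 200 genes at 6 h (9.74% of all genes) and for 14 at 72 h of light (7.82%).

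After 72 h of darkness 51 of the 200 genes rose in ivd1-2 against WT and 1 fell, beside 13.1% and 11% of all genes. The counts rested on single libraries. Without ivd1-2 replicate 1, 0 rose and 0 fell, beside 3.9% and 2.41% of all genes, and the median log2 fold change was -1.04 in place of 1.68. Without ivd1-2 replicate 2, 98 rose and 2 fell, beside 22.2% and 18.8%. Without WT replicate 1 it was 13 and 0, beside 7.15% and 5.26%, and without WT replicate 2 it was 4 and 1, beside 5.53% and 5.44%. A fit of only these groups called 0, over all genes as well. FMO1 had 4381 counts over the ivd1-2 pair and 3 over the WT pair, a ratio of 1250 with a 95% counting interval of 429 to 6090. UGT76B1 had 3406 and 3 counts, a ratio of 975 with an interval of 333 to 4730. Both intervals cover counting error only and leave out the spread between libraries. The fitted log2 fold changes were 10.16 (SE 2.82) for FMO1 and 9.79 (SE 2.88) for UGT76B1. PBS3 rose by log2 8.17 (SE 1.91, adjusted p = 0.00581), WRKY46 by 7.41 (SE 1.99, adjusted p = 0.0122) and BIP3 by 7.28 (SE 1.91, adjusted p = 0.0107). AT1G43910 rose by log2 8.29 (SE 1.63, adjusted p = 0.00204), AT3G46080 by 9.17 (SE 2.08, adjusted p = 0.00481) and AT1G56060 by 8.39 (SE 2.26, adjusted p = 0.0125). Without ivd1-2 replicate 1 the log2 fold change was 0.44 for AT3G46080, -4.34 for AT1G56060 and -3.94 for UGT76B1. The WT pair held only 4 counts of AT1G56060 and 3 of UGT76B1, so the size of these 2 falls is uncertain. AT1G19960, annotated as a transcription factor, fell by 2.78 on the log2 scale (SE 0.82, adjusted p = 0.0195), with 1.60 and 2.45 CPM in ivd1-2 and 21.0 and 8.08 CPM in WT. Both ivd1-2 libraries lay above both WT libraries for 23 of the 200 genes and below them for 24, beside 11.3% and 21.7% of all genes.

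Darkness was compared with light at 72 h within each genotype, and about as many genes rose as fell over the whole table. In ivd1-2, 20 of the 200 genes rose and 56 fell, beside 32.1% and 32.3% of all genes. In hml1-2, 18 rose and 41 fell, beside 31.9% and 32.7%. In WT, 32 rose and 10 fell, beside 32.3% and 31.7%. In this fit the share of the 200 genes that passed was below that of all genes in each count, nearest for the falls in ivd1-2, at 28.0%. Without ivd1-2 replicate 1 in darkness it was above it for these falls, at 48.5%, beside 30.3% of all genes. The median log2 fold change was -0.49 in ivd1-2, -1.62 in hml1-2 and 0.66 in WT, against 0.02, -0.04 and 0.01 over all genes.

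BCB, a blue copper protein, and MSS1, annotated as a transporter of the major facilitator family, rose in darkness in all 3 genotypes. BCB rose by log2 4.61 in ivd1-2 (SE 0.98, adjusted p = 0.000433), 5.65 in hml1-2 (SE 1.03, adjusted p = 9.21e-05) and 6.23 in WT (SE 1.06, adjusted p = 4.53e-05). MSS1 had 664 and 186 CPM in ivd1-2 in darkness, against 18.3 and 25.2 CPM in light, and 209 and 134 CPM in WT in darkness, against 2.26 and 1.95 CPM in light. YLS2 rose in hml1-2 (log2 4.86, SE 0.58, adjusted p = 5.5e-07) and in WT (5.61, SE 0.60, adjusted p = 1.49e-07), as did the vacuolar cation exchanger CAX3 (4.20, SE 1.37, adjusted p = 0.0116, and 5.69, SE 1.52, adjusted p = 0.00300). CYP89A9, which modifies chlorophyll breakdown products, rose in hml1-2 by 4.48 (SE 0.78, adjusted p = 5.18e-05). PMZ and PLA2A rose in ivd1-2, at 456 and 1.58 CPM and 801 and 34.7 CPM in darkness, against 4.11 and 14.4 CPM and 17.0 and 21.5 CPM in light. The lower PMZ library in darkness lay below both light libraries, and without ivd1-2 replicate 1 in darkness the log2 fold change was -2.23.

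The genes that fell in darkness included defence outputs. In ivd1-2 BGL2 fell by 8.27 on the log2 scale (SE 2.66, adjusted p = 0.0109), PR5 by 7.53 (SE 1.70, adjusted p = 0.000752) and PCC1 by 8.09 (SE 2.18, adjusted p = 0.00323). BG3, a relative of BGL2, had 0 counts in the ivd1-2 dark libraries and 279 in light, at least 97.5-fold lower against a floor of 3 counts over the pair. CRK23 had 2 and 465 counts, 244-fold lower with a counting interval of 67.1 to 2020. In hml1-2 the falls were led by TAT3 (log2 -7.78, SE 2.51, adjusted p = 0.0115), ALD1 (-6.84, SE 1.99, adjusted p = 0.00624), AT4G03450 (-6.75, SE 1.58, adjusted p = 0.00101), BG3, with 1 count in darkness and 85 in light (111-fold lower, interval 19.4 to 4440), and the lectin AT5G03350 (-5.90, SE 1.54, adjusted p = 0.00245). The hml1-2 light libraries lay apart in each of these genes, with replicate 1 the higher one. The difference was 4.82 log2(CPM + 1) for TAT3, 4.37 for ALD1 and 3.33 for AT4G03450. For BG3 it was 1.81 and for AT5G03350 1.46. In WT the falls were led by ANK (-4.68, SE 1.47, adjusted p = 0.00946), AT5G03350 (-4.57, SE 1.503, adjusted p = 0.0123), ACD6 (-4.43, SE 1.08, adjusted p = 0.00139), AT1G24147 (-4.17, SE 1.46, adjusted p = 0.0176) and AT1G43910 (-4.16, SE 1.56, adjusted p = 0.0256). ACD6 fell in ivd1-2 by 6.28 (SE 1.16, adjusted p = 0.000113) and in hml1-2 by 5.55 (SE 1.13, adjusted p = 0.000271) as well.

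These counts again changed when single libraries were left out. This held for split pairs and also for the WT pair in light, which had few genes apart. Each of these fits left its group with 1 library, and the part of this in the changes was not tested. In ivd1-2, without replicate 1 in darkness 6 genes rose and 97 fell (29.4% and 30.3% of all genes), without replicate 2 in darkness 56 rose and 27 fell (34.8% and 30.2%), and without replicate 1 or 2 in light 6 or 13 rose (22.9% or 23.6%). In hml1-2, without replicate 1 in light 27 rose and 7 fell (23.7% and 32.5% of all genes) and the median log2 fold change was 1.41. Without replicate 2 in light 11 rose and 66 fell in hml1-2 (26.6% and 27.9%), the 66 being 33.0% of the set. Without replicate 1 in darkness 11 rose and 19 fell in hml1-2 (27.9% and 26.7%), and without replicate 2 in darkness 14 fell (31.8%). In WT, without replicate 1 in darkness 16 rose (22.4% of all genes) and the median was -1.73, and without replicate 2 in light 19 rose (21.7%). In WT 2 fell when either replicate 2 of darkness or replicate 1 of light was left out (31.3% and 27.4% of all genes).

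In ivd1-2, whose 0 h libraries were both high, 51 of the 200 genes fell and 5 rose at 24 h of darkness against 0 h. The falls, at 25.5%, were near the 23.7% of all genes that fell. The rises, at 2.5%, were below the 24.9% of all genes that rose. The median log2 fold change was -2.17, against -0.06 over all genes. ALD1 had 1 count over the 24 h pair and 758 over the 0 h pair, 1150-fold lower with a counting interval of 206 to 45400. UGT76B1 had 0 and 231 counts, at least 117-fold lower. FMO1 had 1 and 218 counts, 330-fold lower with an interval of 58.7 to 13100. BIP3 fell by 6.95 (SE 1.83, adjusted p = 0.00398) and the kinase AT4G18250 by 6.95 (SE 1.61, adjusted p = 0.00144). The 5 that rose were YLS2 (3.04, SE 0.53, adjusted p = 9.96e-05), CYP89A9 (2.67, SE 0.72, adjusted p = 0.00456), AT1G13990 (2.58, SE 0.58, adjusted p = 0.00109), BCB (2.46, SE 0.89, adjusted p = 0.0283) and the thioredoxin TRX5 (1.92, SE 0.73, adjusted p = 0.0360). Of the lists, 3 of 4 salicylate synthesis genes and 4 of 4 pipecolate genes fell. Without ivd1-2 replicate 1 at 24 h 10 genes fell (20.1% of all genes), without ivd1-2 replicate 1 at 0 h 26 fell and 3 rose (19.8% and 16.0%), without replicate 2 at 0 h 2 rose (16.6%), and without replicate 2 at 24 h 3 rose (20.1%). The labels do not state the time of day of sampling, and the length of darkness cannot be told apart from it here.

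The change between darkness and light differed between ivd1-2 and WT in 5 of the 200 genes, all lower in ivd1-2 relative to WT, and in 0 the other way, beside 2.29% and 2.53% of all genes, so the 5, at 2.5%, were near the background. They were the leucine-rich repeat kinase AT1G56120 (difference of log2 changes -5.00, SE 1.25, adjusted p = 0.0289), SAL2 (-4.82, SE 1.14, adjusted p = 0.0226), RLP41 (-4.12, SE 1.16, adjusted p = 0.0459), the aspartyl protease AT3G51330 (-3.57, SE 1.01, adjusted p = 0.0466) and CYP71B23 (-3.23, SE 0.86, adjusted p = 0.0375). RLP41 had 1.73 and 2.21 CPM in ivd1-2 in darkness, against 19.5 and 39.8 CPM in light, and 4.14 and 3.06 CPM in WT in darkness, against 3.11 and 2.41 CPM in light. DESeq2 called 30 lower and 2 higher, beside 3.89% and 6.4% of all genes. With all 36 libraries in the fit 0 passed, beside 1.91% lower and 2.62% higher, and with only the groups compared 0 passed, over all genes as well. Left-out libraries moved the count of 5 to between 0 and 3. It was 1 without ivd1-2 replicate 1 in darkness (1.12% of all genes), 3 without ivd1-2 replicate 2 in darkness (8.05%), when 8 also passed the other way (12.6%), and 1 without WT replicate 2 in darkness (1.37%). It was 0 without WT replicate 1 in darkness (0.502%) or without any 1 of the 4 light libraries (0.437 to 0.848%). Between hml1-2 and WT 0 of the 200 genes passed, beside 0% and 0.00516% of all genes. The median difference there was -2.06, 10 genes were lower at an unadjusted p under 0.05, beside 0.763% of all genes, and DESeq2 called 0, beside 0.0206% lower. Without hml1-2 replicate 1 at 72 h of light this median was 0.85.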

How the data were processed

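RNA-seq was available for 36 libraries from 3 genotypes and 6 conditions, with 2 libraries per group and 13638597 to 49398596 counts each. The authors deposited raw read counts per gene for each library. The tools listed in the submitters' processing notes are HTSeq, TopHat 1.4.1, Trimmomatic 0.30, Cuffdiff 2.1.1 and SAMtools 0.1.19, with the TAIR10 genome. No source used here gives the strand setting of the counting. Reads assigned to no gene (2.37 to 3.53%) were left out. CPM values were computed from these counts, and the 200 genes were ranked on log2(CPM + 1).

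Tests used edgeR 4.0.16 (glmQLFit and glmQLFTest, limma 3.58.1, R 4.3.3) with TMM scaling. The 4 libraries that chose the genes were left out, so 32 libraries in 16 groups entered 1 fit with 16 residual degrees of freedom. filterByExpr (min.count 10, min.total.count 15) kept 19387 genes, and the genes removed held 0.0124% of counts. The fit was tested on simulated data. Alternatives were DESeq2 1.42.0, other scaling, filters, sample sets, gene rankings, a replicate block and leaving out each library. Intervals and floors are at 95% with 3 counts as the floor and cover counting error only.

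The members, lists and tests were chosen with earlier results of these data known. Genes named are list or family members, the 10 of highest score or mean CPM, those beside the limit, and per comparison the 5 largest passing rises and falls. Examples named beyond these were chosen after their values were seen. Names follow RefSeq on TAIR10.1, which matched 28009 locus codes. Windows before gene starts came from that build, and the files hold no coordinates.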

Additional observations from a re-analysis of the deposited data

Results flagged for a closer look

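The change between darkness and light at 72 h differed between ivd1-2 and WT in 5 of the 200 genes by the interaction term of edgeR's quasi-likelihood fit, all lower in ivd1-2 relative to WT and 0 the other way. Over all genes 2.29% were lower and 2.53% higher, so the share of 2.5% is near the background. The 5 were AT1G56120, SAL2, RLP41, AT3G51330 and CYP71B23. Each group had 2 libraries, and leaving out any 1 of the 4 light libraries left 0 of them.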

How the results depend on the processing

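Values here are percents of the list's genes that rose or fell, since the alternatives change the number of genes. The share of all genes that passed also changed between settings and is given above for some of them. A higher percent here can therefore go with more calls over all genes. With all 36 libraries in the fit, 19% rose in ivd1-2 against WT over 5 conditions (35.5% as reported), 16.0% at 72 h of darkness (25.5%), 6.5% in darkness against light in ivd1-2 (10%) and 1.5% at 24 h against 0 h (2.5%). In that fit 10.5% fell in darkness in hml1-2 (20.5%), 3.0% in WT (5.0%), 11.5% at 24 h (25.5%), and 0.0% in the difference between ivd1-2 and WT (2.5%). With only the groups compared, the rises were 19.5% at 6 h and 75.5% in light for ivd1-2 against WT (0.0% each as reported), 0.0% at 72 h of darkness with 0.0% falls (0.5%), 3.0% in ivd1-2 and 5.5% in hml1-2 (9.0%) in darkness against light, and 4.0% at 24 h. The falls were 10.5% in hml1-2, 12.0% in WT, 53.0% at 24 h and 0.0% in the difference. DESeq2 gave rises of 58.5% over 5 conditions, 13.5% at 6 h, 16.0% in light and 1.0% in the difference, with falls of 1.0% at 72 h of darkness and 15% in the difference. A mean of at least 5 CPM gave 0.5% rises in light and 18.5% falls in ivd1-2 darkness (28.0%), and no low-count filter gave 1.5% falls in the difference. Ranking by log2(CPM + 5), which shared 160 of the 200 genes, gave 10.5% falls in WT, 4.0% rises at 24 h and 0.5% rises in the difference. The first 100 genes gave rises of 2.0% in ivd1-2, 3.0% in hml1-2 and 7.0% in WT (16.0%) in darkness and 0.0% at 24 h, with falls of 0.0% at 72 h of darkness, 8.0% in WT and 5.0% in the difference. The first 400 gave rises of 0.25% in light, 18.25% in ivd1-2 darkness, 5.25% at 24 h and 0.5% in the difference, with 0.25% falls at 72 h of darkness. The cause of these shifts was not tested.

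A replicate block gave 0.5% rises in light, 1.0% falls at 72 h of darkness and 10% falls in the difference. The labels do not pair the replicate numbers, and correlations of replicate differences between compared groups ran from -0.132 to 0.498. Leaving out 1 library at a time gave rises of 14 to 52.5% over 5 conditions, 0.0 to 49.0% at 72 h of darkness, 3.0 to 28.0% in ivd1-2, 5.5 to 13.5% in hml1-2 and 8.0 to 15% in WT in darkness against light, 1.0 to 2.5% at 24 h and 0.0 to 4.0% in the difference. The falls were 0.0 to 1.0% at 72 h of darkness, 13.5 to 48.5% in ivd1-2, 3.5 to 33.0% in hml1-2, 1.0 to 6.0% in WT, 5.0 to 18.5% at 24 h and 0.0 to 1.5% in the difference. Without ivd1-2 replicate 1 at 72 h of darkness the log2 fold change against WT turned to -3.94 for UGT76B1 and -4.34 for AT1G56060. The WT pair held only 3 and 4 counts of these genes, so the size of these values is uncertain. Against light the log2 fold change turned to -3.70 for AT3G46080 and -2.23 for PMZ. Over all libraries left out in turn, the highest values were 13.86 for UGT76B1, 12.85 for AT1G56060, 6.21 for AT3G46080 and 6.05 for PMZ. Of 697 alternatives for 56 results on named genes, 549 kept the direction and the side of the threshold, 144 no longer passed and 4 turned. Of 96 alternatives for the counts by replicate pair, 53 stayed within 1.5 times and 43 moved further.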
